A study of Mus musculus with 2 samples.

Results

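The 10 genes described here encode 7 matrix metalloproteinases, Mmp2, Mmp8, Mmp9, Mmp12, Mmp13, Mmp14 and Mmp19, and 3 of their tissue inhibitors, Timp1, Timp2 and Timp3. They were taken by gene symbol from the 32285 genes of the count tables, by a rule that uses no measured value, although the list was drawn up with earlier results of these data known. Each was measured in 2 single-nucleus RNA-seq libraries of mouse periosteum with hematoma and callus. The day 1 post-fracture library came from wild-type C57BL6 mice 1 day after an open, non-stabilized fracture of the tibia. The day 5 post-MTI library came from C57BL6 mice 5 days after a musculoskeletal traumatic injury (MTI), in which the same fracture is combined with a mechanical injury of the surrounding hindlimb muscles. Each library pooled nuclei from 3 or 4 mice, stained with Sytox-AAD and sorted, and the labels give no treatment or transgene for either group.

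Matrix metalloproteinases are zinc-dependent endopeptidases that cut collagens, gelatin, elastin, proteoglycans and many bound growth factors. Most are secreted as inactive proenzymes, a smaller number are anchored in the cell membrane, and all are held in check by the TIMPs, which bind the active site. In a fracture callus they clear the provisional and cartilage matrix, let vessels and osteoclasts enter, and take part in remodelling of the bone that replaces it.

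The day 5 post-MTI library held 1446 barcodes and 5899407 UMIs (unique molecular identifiers, each standing for 1 captured RNA molecule), and single barcodes held from 500 to 45740 UMIs, 2246 at the median. After the filters of the study, 1127 nuclei with 4337337 UMIs remained. The study also removed myogenic nuclei. These were kept here in both libraries, and at day 5 they count among all other retained nuclei. The day 1 post-fracture library was shallow, with 9389014 UMIs in 48987 barcodes and 157 UMIs at the median, and 2405 of its nuclei passed the filters with a median of 409 UMIs. The libraries shared 33 barcode sequences. With 1 library per condition there were no replicates, so no test between conditions was made, and day and type of injury cannot be told apart. Every interval below is an exact 95% interval that covers counting error only.

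The nuclei of the day 5 post-MTI library were clustered without the 78 measured genes of the MMP, TIMP, ADAM and ADAMTS families, and the clusters were named from marker genes. Macrophage-like nuclei numbered 270, or 24.0% of those retained, with a median of 4042 UMIs. Skeletal-like nuclei, which take in progenitor, fibrogenic, chondrogenic and osteogenic cells, numbered 176 with a median of 3943 UMIs. There were 87 neutrophil-like nuclei with a median of only 757 UMIs, 36 vascular-like nuclei with a median of 3862 and 30 osteoclast-like nuclei with a median of 7548. Clusters of 178, 74, 68 and 50 nuclei stayed unnamed and also count among all other retained nuclei in the ratios below. The names were given from these same marker lists, so the levels below describe the classes and do not test the names. The 11 macrophage markers were all detected in macrophage-like nuclei, and their summed level was 5782 CPM (UMIs of a gene per 1000000 UMIs of the class) against 1073 CPM in all other nuclei. The 9 neutrophil markers reached 9037 CPM against 159 CPM, the 7 osteoclast markers 5558 against 73.6 CPM and the 23 skeletal markers 17699 against 743 CPM. The vascular-like class was named from the endothelial part of its list alone, so its values are those of endothelial-named nuclei. Of the 16 vascular markers 13 were detected, at 12036 against 1058 CPM. The 3 at 0 were Myh11, Rgs5 and Kcnj8, which belong to the 7 markers of smooth muscle and pericytes on that list, and the other 4 of those were detected. In the osteoclast-like nuclei 6 of the 11 macrophage markers were detected, at 970.1 CPM against 2449 CPM in other nuclei, and C1qa, C1qb, C1qc and Cd163 were among those at 0. Neutrophil-like nuclei held skeletal markers at 1725 CPM and myogenic markers at 1587 CPM. In macrophage-like nuclei these were at 367 and 167 CPM.

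A gene was counted as higher in a class when its CPM was at least 2 times that of all other retained nuclei and the interval of the ratio lay above 1, and as lower at a ratio of 0.5 or less with an interval under 1. All 10 genes had the 20 UMIs required for this comparison, as had 12746 genes in all. In skeletal-like nuclei Mmp2, Timp1 and Timp3 were higher, against 14.5% of all genes tested, and Mmp9 and Mmp12 were lower, against 19.9%. Macrophage-like nuclei had Mmp12, Mmp13, Mmp19 and Timp2 higher against a background of 10.3%, and Mmp2, Mmp9, Timp1 and Timp3 lower against 26.4%. Osteoclast-like nuclei had Mmp9 and Mmp14 higher against 8.25%, and Mmp2, Mmp12 and Timp3 lower against 15.4%. In neutrophil-like nuclei Mmp8 and Mmp9 were higher against 7.78%, and Mmp12 and Mmp14 lower against 9.63%. Without the 1 nucleus richest in Mmp12, the neutrophil ratio of that gene was 0 (0 to 1.36), no longer counted as lower. The Mmp14 call rested on 1 UMI. At a mitochondrial limit of 0.5% its ratio was 0.531 (0.109 to 1.57), also no longer counted as lower. Vascular-like nuclei had only Timp3 of the 10 genes higher, against 8.63%, and Mmp9, Mmp12 and Timp2 lower, against 12.2%, where the Mmp9 ratio of 0.264 turned to 1.11 with each nucleus weighted equally. The higher calls were thus spread over the classes, with proteases and inhibitors together in skeletal-like and, less firmly, in macrophage-like nuclei. Timp2 was the only inhibitor called higher in macrophage-like nuclei, at a ratio of 2.11. Its call and that of Mmp19 (2.34) there were lost under several alternatives given below. The higher call of Mmp13 in macrophage-like nuclei rested on 1 nucleus.

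**Figure D1:**
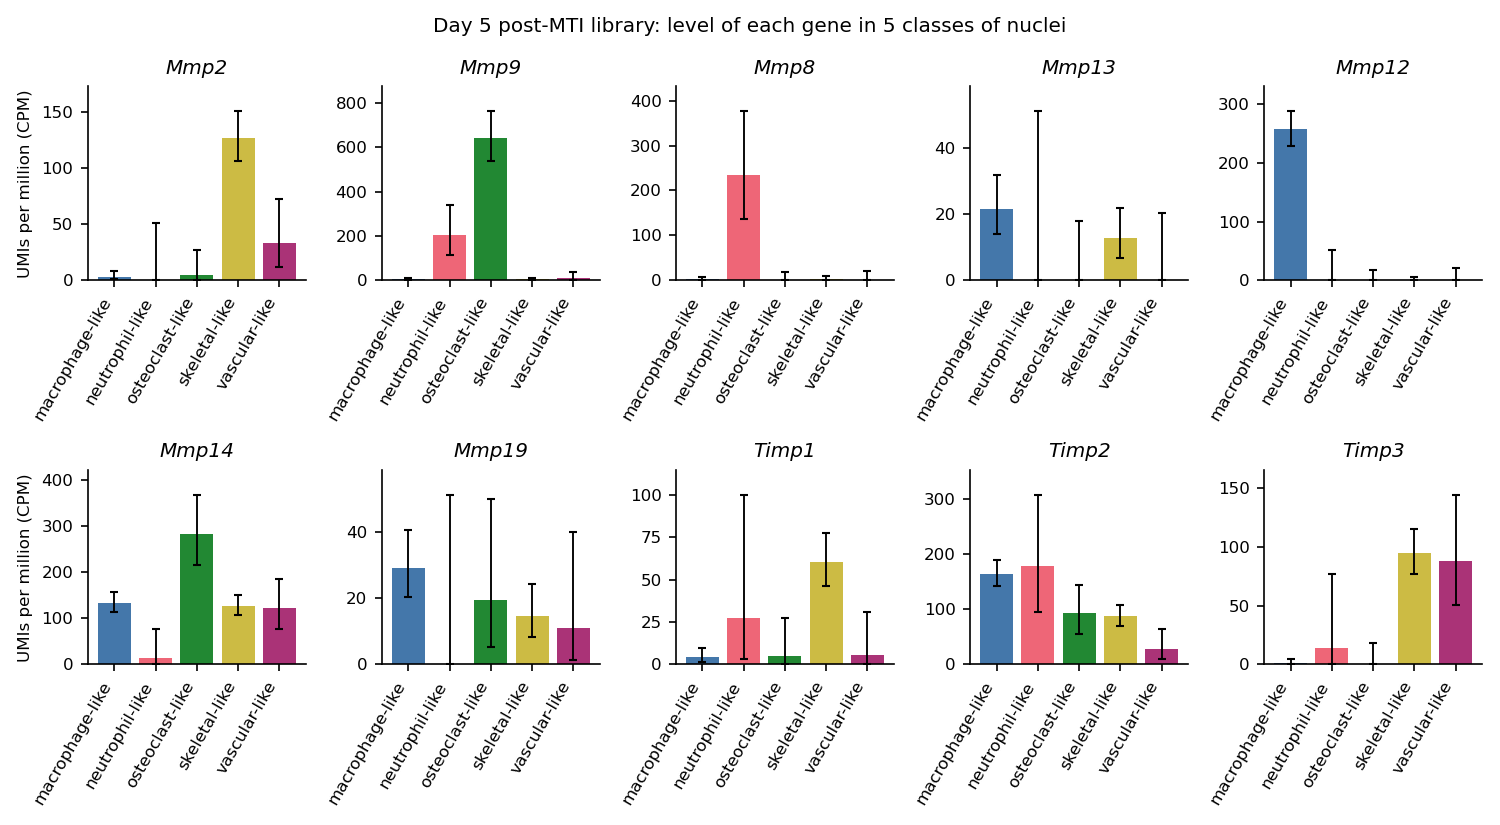
Level of each of the 10 genes (CPM) in the 5 classes of the day 5 post-MTI library, with exact 95% Poisson intervals. Mmp9 reached 644 CPM in osteoclast-like nuclei, Mmp8 235 CPM in neutrophil-like nuclei and Mmp2 127 CPM in skeletal-like nuclei.

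Of the proteases, 3 lie in 1 gene cluster. On mm10 chromosome 9, 10 MMP genes lie within 427072 bases, from 7272514 to 7699585, among them Mmp13 (7272514 to 7283331), Mmp12 (7344381 to 7369499) and Mmp8 (7558456 to 7568485), all on the plus strand. Promoters are shown for Mmp13 and Mmp12, since 3 nuclei held both genes. Of the 26 Mmp13 UMIs in macrophage-like nuclei, 18 lay in 1 of these 3. RefSeq (GRCm38.p6) gave a promoter for 7 of the 10 genes, and the window used here runs from 250 bases before the start site through its first 10 bases. The Mmp13 window is chr9:7272264-7272523 and that of the second Mmp12 start site is chr9:7347124-7347383, both on the plus strand and written 5′ to 3′. Capitals mark matches to AP-1 (TGANTCA, the Fos and Jun site) and to the core promoter element known as TATA box, searched as TATAAA, on both strands.

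Mmp13: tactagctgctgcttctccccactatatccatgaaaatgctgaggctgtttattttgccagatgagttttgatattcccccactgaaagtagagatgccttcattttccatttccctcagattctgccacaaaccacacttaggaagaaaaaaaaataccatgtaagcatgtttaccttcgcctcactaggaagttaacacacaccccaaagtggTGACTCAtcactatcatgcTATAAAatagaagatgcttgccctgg
Mmp12, second start site: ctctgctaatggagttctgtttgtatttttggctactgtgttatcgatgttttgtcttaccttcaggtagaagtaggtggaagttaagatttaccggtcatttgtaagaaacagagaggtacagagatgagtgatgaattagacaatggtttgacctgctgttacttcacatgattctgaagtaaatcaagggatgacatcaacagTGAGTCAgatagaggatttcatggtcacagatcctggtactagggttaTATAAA

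Counted from 1 at the start site, the AP-1 match spanned bases -35 to -29 in Mmp13 and -44 to -38 in Mmp12. The TATA match lay at -16 to -11 in Mmp13 and at 5 to 10 in Mmp12, and the first Mmp12 start site had neither. Neither Mmp8, Mmp14 nor the 3 TIMP promoters held an AP-1 match, and Mmp8 held a TATA match on the minus strand across its start site. RUNX letters (ACCACA, both strands) were found in Mmp13 at -118 to -113 and in Mmp14 at -114 to -109. Of all 32851 promoters of this length, 7.03% held the AP-1 letters, 12.7% the TATA letters and 14.5% the RUNX letters. A match of letters is a description of the window only.

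The 2 gelatinases, Mmp2 and Mmp9, which degrade denatured collagen and type IV collagen, divided between skeletal and hematopoietic nuclei. Mmp2 (chromosome 8, 92827291 to 92853420) had 130 UMIs in skeletal-like nuclei, found in 59 of the 176 (33.5%), or 127 CPM (106 to 150.4). Vascular-like nuclei had 6 UMIs or 33.1 CPM (12.2 to 72.1), macrophage-like nuclei 4 UMIs or 3.33 CPM, osteoclast-like nuclei 1 UMI or 4.88 CPM and neutrophil-like nuclei none, where a count of 0 allows up to 41.4 CPM. Skeletal-like nuclei thus held 84.4% of the Mmp2 UMIs in retained nuclei and stood 17.5-fold (11.2 to 28.2) above the rest. They were 3.82-fold (1.71 to 10.6) above vascular-like nuclei, the next in order, and no other neighbouring classes in the order differed beyond counting error. In myogenic nuclei, deeper at a median of 6257 UMIs, the gene was seen in 4.00% of nuclei. In the myogenic cluster of 26 nuclei led by Chodl, Dcx, Pax7, Prox1 and Chrna7 it was seen in 11.5%, or 3 nuclei. In that of 99 nuclei led by Nctc1, Myot, Gm12224, Art1 and Ampd1 it was seen in 2.02%.

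Mmp9 (chromosome 2, 164940780 to 164955850) was found in 26 of the 30 osteoclast-like nuclei (86.7%, interval 69.3 to 96.2%), with a median of 4.00 and a maximum of 15 UMIs per nucleus. These nuclei held 132 UMIs, 75.0% of the gene's UMIs in retained nuclei, or 644 CPM (538 to 763). This was 60.4-fold (42.7 to 87.1) the level in all other retained nuclei. Neutrophil-like nuclei followed at 207 CPM (116 to 341), from 15 UMIs in 14 of 87 nuclei (16.1%), a ratio of 5.48 (3.00 to 9.31). The order was clear at the top, since osteoclast-like nuclei were 3.11-fold (1.82 to 5.71) above neutrophil-like nuclei, and these were 18.7-fold (4.36 to 169) above vascular-like nuclei. Vascular-like (11.0 CPM, 2 UMIs), macrophage-like (6.65 CPM, 8 UMIs) and skeletal-like nuclei (5.84 CPM, 6 UMIs) followed, and neighbours among them did not differ beyond counting error. The shallow neutrophil-like nuclei lower the raw share there. When every nucleus was thinned to 500 UMIs, Mmp9 was expected in 31.6% of osteoclast-like and 10.8% of neutrophil-like nuclei, against 0.0783% of myogenic nuclei. With a stricter mitochondrial limit of 0.5% the neutrophil ratio was 2.53 (0.998 to 5.35), no longer counted as higher.

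Mmp8, the neutrophil collagenase stored in granules, had 32 UMIs in retained nuclei. Of these 17 lay in 9 neutrophil-like nuclei (10.3% of 87), with at most 4 UMIs in a nucleus. Its level was 235 CPM (137 to 376), 66.7-fold (31.3 to 143) that of all other nuclei. Skeletal-like and macrophage-like nuclei each had 4 UMIs (3.90 and 3.33 CPM), and osteoclast-like and vascular-like nuclei had none, which allows up to 14.6 and 16.6 CPM. The neutrophil level exceeded the skeletal one 60.2-fold (19.6 to 246), and no other neighbouring classes differed beyond counting error. Myogenic nuclei held 1 UMI. At the 0.5% mitochondrial limit the ratio was 80.0 (28.3 to 244), but the gene then had 18 UMIs in all and fell under the minimum for a call.

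Mmp12, the macrophage elastase, was concentrated in very few nuclei. It had 309 UMIs in macrophage-like nuclei, 257 CPM (229 to 287), a ratio of 27.8 (19.0 to 42.2), yet these came from 10 of the 270 nuclei (3.70%). Across all retained nuclei 20 held a UMI, and the 3 richest, with 177, 56 and 54 UMIs, carried 84.9% of the total. All 3 lay in macrophage-like clusters, with 76, 5 and 90 UMIs of the macrophage markers and 10, 0 and 11 of the osteoclast markers. The second, with so few macrophage marker UMIs, also held 4 UMIs of skeletal markers. The first alone had 12184 UMIs in total and an Mmp12 level of 14527 CPM. Without it the macrophage level was 111 CPM (92.8 to 131) and the ratio 12 (7.97 to 18.6), still counted as higher. Skeletal-like nuclei had 1 UMI, and neutrophil-like, osteoclast-like and vascular-like nuclei had none, allowing up to 41.4, 14.6 and 16.6 CPM. Outside these classes, 14 UMIs lay in 1 nucleus of a myogenic cluster, which also held 25 UMIs of macrophage markers, and 5 in 1 nucleus of the erythroid cluster, which held 40. Whether more than 1 cell contributed to these was not tested.

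Among the 4 macrophage clusters Mmp12 was uneven. The cluster of 34 nuclei led by AU022793, Gpnmb, Rgs1, Itgax and Htr2b had 241 UMIs in 5 nuclei, or 1228 CPM (1078 to 1393), 18.2-fold (13.8 to 24.2) the other macrophage clusters. The cluster led by Ptgr1, Hmox1, Gm20658, Tnf and Prdx1 had 174 CPM, from 66 UMIs, of which 56 lay in 1 nucleus. The clusters led by Dnase1l3, Gpr162, Gm13710, Psme2b and Gm2629 (3.03 CPM) and by Ccl8, Cd163, Ednrb, Gm15413 and Siglec1 (3.35 CPM) had 1 UMI each. Without the richest nucleus the Gpnmb cluster was at 348 CPM. Its 5 nuclei with Mmp12, the richest included, held 10, 11, 13, 7 and 0 UMIs of the osteoclast markers. Of the macrophage markers they held 76, 90, 24, 50 and 2 UMIs. The members were held out of the clustering, so these differences were not built in, but they rest on a handful of nuclei.

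**Figure D2:**
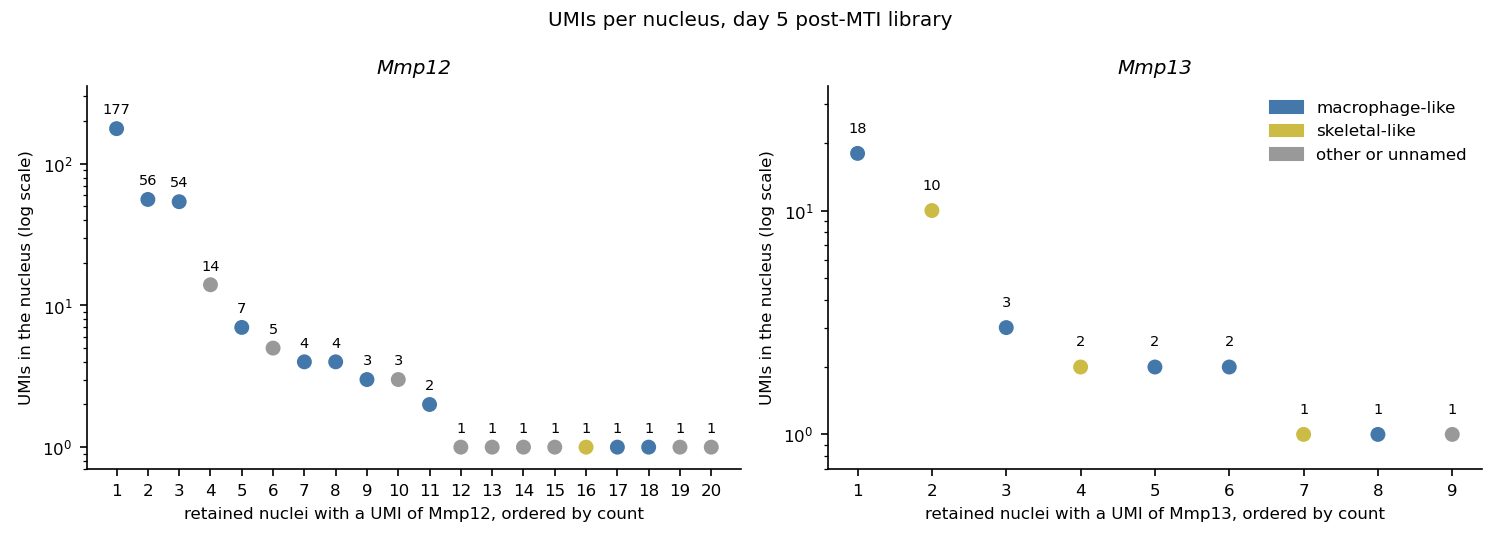
UMIs of Mmp12 and Mmp13 (log scale) in each retained nucleus of the day 5 post-MTI library that held any, ordered by count, with the class of the nucleus in colour. The 20 nuclei with Mmp12 fall from 177 UMIs to 1 and the 9 with Mmp13 from 18 to 1, so a few nuclei carry most of either gene.

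Mmp13, the main collagenase of hypertrophic cartilage and bone, was sparse. Macrophage-like nuclei had 26 UMIs in 5 nuclei, or 21.6 CPM (14.1 to 31.7), and skeletal-like nuclei 13 UMIs in 3 nuclei, or 12.7 CPM (6.74 to 21.7). The ratio between them, 1.71 (0.846 to 3.62), did not separate the classes. Neutrophil-like, osteoclast-like and vascular-like nuclei had none. The richest nucleus, with 18 Mmp13 UMIs, was the same Gpnmb-cluster nucleus that held 177 Mmp12 UMIs. It carried 51 UMIs of Gpnmb and 43 of Spp1, a secreted phosphoprotein of macrophages and bone. It also held 76 UMIs of the macrophage markers and 10 of the osteoclast markers. The next, with 10 UMIs, was a skeletal-like nucleus with 36 UMIs of Col1a1, 9 of Runx2 and 8 of Alpl, genes of bone-forming cells. Of the 20 nuclei with Mmp12 and the 9 with Mmp13, 3 held both, all macrophage-like, where 10 nuclei had Mmp12 and 5 had Mmp13. Leaving out the richest nucleus put the skeletal level above the macrophage one. The macrophage level was then 6.72 CPM (2.90 to 13.2) with a ratio of 1.5 (0.547 to 3.84), no longer counted as higher, and the skeletal ratio rose from 1.55 to 4.64, which was. A single removed barcode, with 5443 genes and 22539 UMIs and so past the limit of 5000 genes, held 33 further Mmp13 UMIs beside 295 UMIs of skeletal and 77 of vascular markers. Without the upper gene limit it clustered with the endothelial nuclei and the vascular ratio became 14.9. The class of Mmp13 in this library therefore rested on 1 or 2 barcodes.

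Mmp14, a membrane-anchored protease that cuts fibrillar collagen and activates proMMP2, had UMIs in all 5 classes, at like levels in 3 of them. Osteoclast-like nuclei had 58 UMIs in 22 of 30 nuclei (73.3%), or 283 CPM (215 to 366). Macrophage-like nuclei had 161 UMIs in 38.1% of nuclei, or 134 CPM (114 to 156), skeletal-like nuclei 130 UMIs in 42%, or 127 CPM (106 to 150.4), and vascular-like nuclei 22 UMIs in 33.3%, or 122 CPM (76.2 to 184). Neutrophil-like nuclei had 1 UMI, or 13.8 CPM. Osteoclast-like nuclei stood 2.11-fold (1.54 to 2.87) above macrophage-like nuclei and 3.03-fold (2.26 to 4.00) above all others. Macrophage-like and skeletal-like nuclei did not differ beyond counting error, nor did skeletal-like and vascular-like nuclei, and vascular-like nuclei exceeded neutrophil-like nuclei 8.81-fold (1.42 to 364). Myogenic nuclei, despite their depth, showed Mmp14 in 8.00%. The share was uneven among them, at 34.6% (71.9 CPM, 39.3 to 121) in the Chodl cluster and 1.01% (1.43 CPM) in the Nctc1 cluster. Thinned to 500 UMIs, the expected shares were 14.8% in osteoclast-like, 6.94% in macrophage-like, 6.70% in skeletal-like and 1.04% in myogenic nuclei.

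Within the macrophage-like nuclei Mmp14 followed another cluster than Mmp12. The Dnase1l3 cluster had 234 CPM (77 UMIs), 2.43-fold (1.76 to 3.35) the other macrophage clusters, and the Hmox1 cluster 71.4 CPM (27 UMIs), 0.439 (0.279 to 0.668) of the others. The Ccl8 and Gpnmb clusters, at 111 and 122 CPM, did not differ from the others beyond counting error. In osteoclast-like nuclei Mmp14 and Mmp9 were seen together in 21 nuclei, 80.8% of those with Mmp9 and 95.5% of those with Mmp14, where independence would give 19.1 nuclei. The median of those 21 nuclei was 8469 UMIs against 7548 for the class. In skeletal-like nuclei 43 held both Mmp2 and Mmp14, 72.9% and 58.1% of the nuclei with each gene, where independence would give 24.8. Their median was 9635 UMIs against 3943 for the class, and the part of depth in this sharing was not tested.

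Mmp19, a secreted protease of basement membrane and matrix proteins, was low throughout. Macrophage-like nuclei had 35 UMIs in 10.0% of nuclei, or 29.1 CPM (20.3 to 40.5), a ratio of 2.34 (1.44 to 3.79). It was no longer counted as higher with the member families kept in the clustering (1.53), with a lower limit of 500 genes (1.75), without mitochondrial, ribosomal and upper gene limits (1.89) or at a fold of 3. Osteoclast-like nuclei had 4 UMIs (19.5 CPM), skeletal-like nuclei 15 (14.6 CPM), vascular-like nuclei 2 (11.0 CPM) and neutrophil-like nuclei none, allowing up to 41.4 CPM. No neighbouring classes in this order differed beyond counting error. An unnamed immune cluster of 74 nuclei led by Olr1, Ankrd37, Ltc4s, Osm and Nt5e had 44.9 CPM (22.4 to 80.3). Its ratio was 2.91 (1.38 to 5.58). Arg1, the study's marker of early macrophages, and Ccr2 were also among its leading genes. These nuclei are not counted in the macrophage-like class. The opposite-strand genes Gm47093 and Tmem198b overlap Mmp19, and the use of strand in counting is not given in the sources used here.

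**Figure D3:**
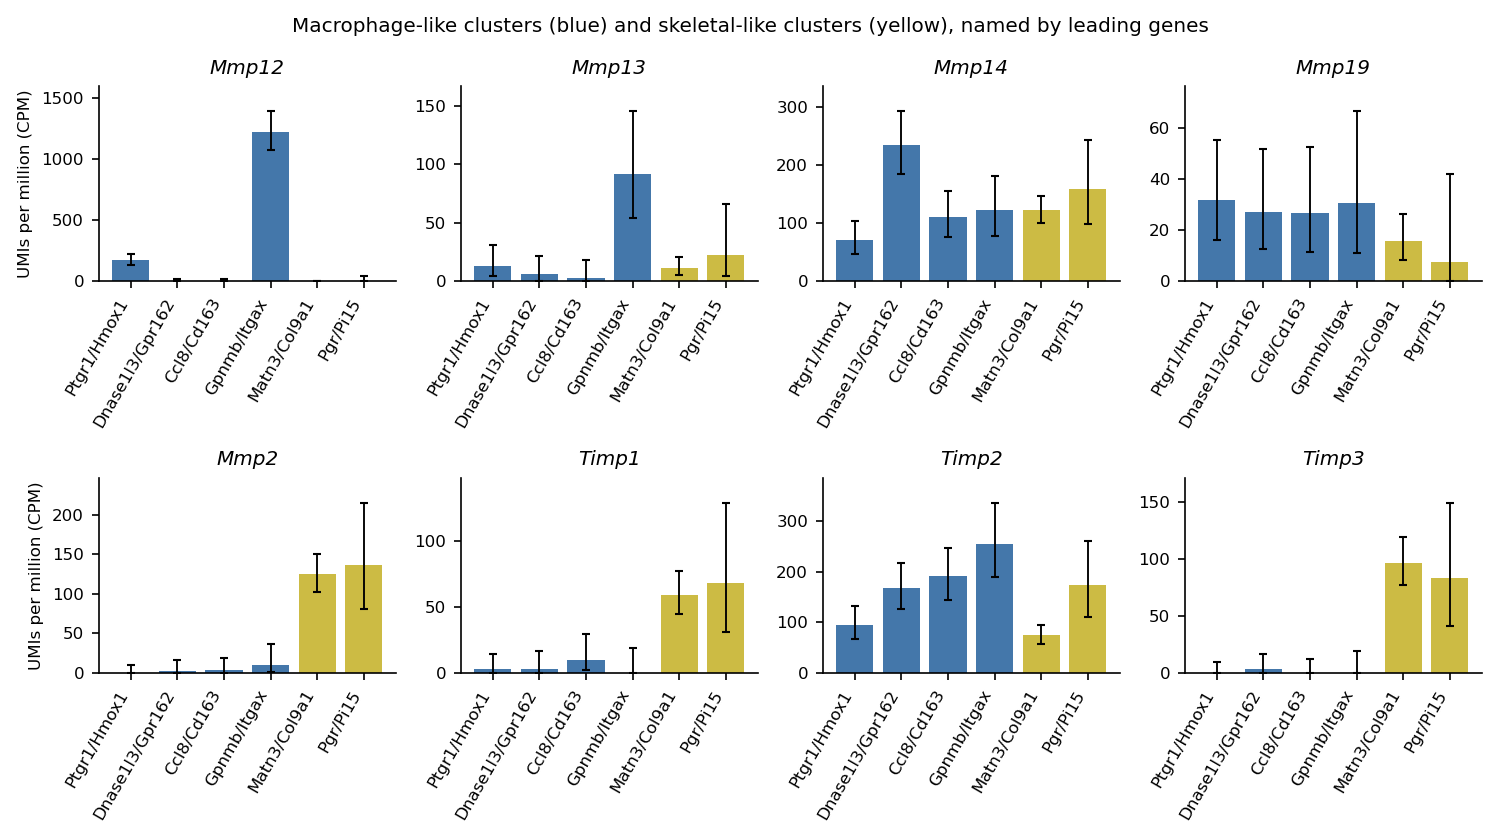
Level (CPM, bars) of 8 of the 10 genes, without Mmp8 and Mmp9, in the 4 macrophage-like (blue) and 2 skeletal-like (yellow) clusters of the day 5 post-MTI library, each named by 2 leading genes, with exact 95% Poisson intervals. Mmp12 is at 1228 CPM in the Gpnmb cluster and Mmp14 at 234 CPM in the Dnase1l3 cluster, and the 91.7 CPM of Mmp13 in the Gpnmb cluster come from 1 nucleus.

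The inhibitors Timp1 and Timp3 shared the skeletal-like class with Mmp2. Timp1 (chromosome X, 20870166 to 20874735), a soluble inhibitor of most secreted MMPs, had 62 UMIs in 18.2% of skeletal-like nuclei, or 60.4 CPM (46.3 to 77.4), 8.69-fold (5.31 to 14.7) the rest. The other 4 classes had 1 to 5 UMIs each. Macrophage-like nuclei, at 4.16 CPM from 5 UMIs, had 0.163 (0.0515 to 0.396) of the level of other nuclei. The 27.6 CPM of neutrophil-like nuclei came from 2 UMIs and could not be told from the skeletal level, nor could any lower neighbours in the order from each other. The gene Syn1 overlaps Timp1 on the opposite strand.

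Timp3, which binds to the extracellular matrix and also inhibits ADAM and ADAMTS proteases, had 97 UMIs in 20.5% of skeletal-like nuclei, or 94.5 CPM (76.6 to 115), a ratio of 7.63 (5.25 to 11.3). Vascular-like nuclei had nearly the same level, 88.4 CPM (50.5 to 144) from 16 UMIs in 19.4% of nuclei, with a ratio of 3.01 (1.67 to 5.09). The 2 classes differed 1.07-fold (0.626 to 1.94). Macrophage-like and neutrophil-like nuclei had 1 UMI each and osteoclast-like nuclei none, which allows up to 14.6 CPM. The macrophage ratio of 0.0190 (0.000478 to 0.108) was the lowest above 0 of the 3 inhibitors in any class. At the 0.5% mitochondrial limit the vascular ratio was 2.37 (0.920 to 5.11), no longer counted as higher. Syn3 overlaps Timp3 on the opposite strand.

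Timp2, which inhibits MMPs and also joins Mmp14 in the activation of proMMP2, had UMIs in all 5 classes. Neutrophil-like nuclei had 179 CPM (95.5 to 307) from 13 UMIs, and macrophage-like nuclei 165 CPM (142 to 189) from 198 UMIs in 39.6% of nuclei. These 2 did not differ beyond counting error (1.09, interval 0.570 to 1.91), and the part of free RNA in the neutrophil value was not tested. Osteoclast-like nuclei had 92.6 CPM (55.8 to 145) and skeletal-like nuclei 87.7 CPM (70.5 to 108), also indistinguishable, and vascular-like nuclei 27.6 CPM (8.97 to 64.5). Macrophage-like nuclei exceeded osteoclast-like nuclei 1.78-fold (1.11 to 3.01), and skeletal-like nuclei exceeded vascular-like nuclei 3.17-fold (1.31 to 10.0). The macrophage ratio of 2.11 (1.74 to 2.55) stood just past the 2-fold limit. It was no longer counted as higher at the 0.5% mitochondrial limit (1.82), with equal weight for each nucleus (1.70), with nuclei named by their own markers (1.92), without mitochondrial, ribosomal and upper gene limits (1.89) or at a fold of 3. The vascular ratio of 0.262 (0.0847 to 0.616) was counted as lower. Timp2 was also seen in 24.8% of myogenic and 33.3% of erythroid nuclei, at 69.4 and 153 CPM. The unnamed cluster led by Olr1 had 36.7 CPM (16.8 to 69.7). Cep295nl lies within the same strand and span, so some of these UMIs cannot be assigned to Timp2 with certainty.

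Timp2 also varied within classes. The Gpnmb cluster had 255 CPM, 1.73-fold (1.23 to 2.40) the other macrophage clusters, and the Hmox1 cluster 95.2 CPM, 0.484 (0.328 to 0.698) of the others. The Ccl8 and Dnase1l3 clusters had 191 and 167 CPM. In the skeletal-like class, the cluster of 71 nuclei led by Pgr, Pi15, Lbp, Efemp1 and Lvrn had 174 CPM and that of 105 nuclei led by Lipi, Matn3, C1qtnf2, Ptpru and Col9a1 had 74.9 CPM, a ratio of the second to the first of 0.431 (0.265 to 0.725). The same 2 clusters had Mmp2 at 136 and 125 CPM, Timp1 at 68.0 and 59.3 CPM, Timp3 at 83.1 and 96.2 CPM and Mmp14 at 159 and 122 CPM, none of which differed beyond counting error.

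Seen per nucleus, 27 of 30 osteoclast-like, 98 of 176 skeletal-like, 135 of 270 macrophage-like, 18 of 36 vascular-like and 23 of 87 neutrophil-like nuclei held a UMI of at least 1 of the 7 proteases. For the 3 inhibitors the numbers were 11, 89, 110, 11 and 14, or 36.7%, 50.6%, 40.7%, 30.6% and 16.1%. In myogenic nuclei the shares were 15.2% for the proteases and 33.6% for the inhibitors. All 11 osteoclast-like nuclei with a TIMP also held an MMP, as did 27 of all 30 nuclei of that class. These shares rise with depth, and the neutrophil-like nuclei were the shallowest.

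For each gene the 3 most similar patterns were sought over 16 clusters, by Pearson's r of log2(CPM + 10), as a description only, since clusters share 1 library and differ in depth. Mmp2 was most like Serping1 (r = 0.95), Bicc1 (0.95) and Pcdh19 (0.94), and its r with Timp3 was 0.87. Within the skeletal-like class, 11 nuclei held both Mmp2 and Timp3, where independence would give 12.1. For Mmp2 and Timp1 it was 13 nuclei against 10.7. Timp3 was most like Sgce (0.97), Cald1 (0.97) and Adamts12 (0.96), and Timp1 like Gadd45g (0.84), Rarg (0.81) and Thbs3 (0.80). Mmp8 was most like the neutrophil genes S100a9 (0.97), Arg2 (0.96) and Cxcr2 (0.96). Mmp9 was closest to Rufy4 (0.86), Cpsf4 (0.82) and Antxr2 (0.82), and Mmp14 to Smurf1 (0.87), Nav1 (0.84) and AW554918 (0.83). Mmp12 was closest to AU022793 (0.83), the cathepsin gene Ctsl (0.81) and Vat1 (0.81), and Mmp13 to Dnajb11 (0.72), Mmp12 itself (0.72) and Anpep (0.71). In the Gpnmb cluster all 18 Mmp13 UMIs and 177 of the 241 Mmp12 UMIs lay in the same nucleus. The part of that nucleus in these values of r was not tested. Mmp19 was closest to Zfp992 (0.86), Stx8 (0.85) and Epb41l1 (0.84), and Timp2 to Reps2 (0.84), Galc (0.79) and Zfp704 (0.78).

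The other genes of matrix proteolysis showed where these members stand among their relatives. The list had 50 genes, of which 36 had enough UMIs. In skeletal-like nuclei 11 were higher and 13 lower (14.5% and 19.9% of all genes tested), with a median ratio of 0.734 against 0.904 over all genes tested. Mmp16, a membrane-anchored relative of Mmp14, was at 343 CPM (ratio 59.8, 37.7 to 100.4), with 74 of its 352 UMIs in 1 nucleus, and Mmp23 at 58.4 CPM (27.6, 12.6 to 71.7). Reck, a membrane-anchored MMP inhibitor, was at 68.2 CPM (9.82, 6.05 to 16.5). Plat, the tissue-type plasminogen activator, was at 32.1 CPM (15.2). Adam12 (1557 CPM), Adamts12 (628 CPM) and Adamts2 (332 CPM), the procollagen peptidase, were higher there too.

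Macrophage-like nuclei had 11 of the 36 higher and 18 lower (10.3% and 26.4% of all genes), with a median ratio of 0.498 against 0.866. The lysosomal cathepsins Ctsb (811 CPM, ratio 7.28), Ctss (691 CPM, 5.85) and Ctsl (331 CPM, 4.23) were higher, as were Lrp1 (793 CPM, 2.74), an endocytic receptor that clears MMPs, and the proprotein convertase Furin (115 CPM, 2.23), which activates Mmp14. Plau, the urokinase-type plasminogen activator, was at 52.4 CPM (2.25), and Mmp27 at 22.4 CPM (3.70). Osteoclast-like nuclei had 3 of the 36 higher, a share near the 8.25% of all genes, and 15 lower (15.4% of all genes), with a median of 0.117 against 0.746. The 3 were Ctsk (1745 CPM, ratio 81.0), the collagen-cutting cathepsin that was itself among the naming markers, and the integrin subunits Itgav (2549.7 CPM, 8.63) and Itgb3 (229 CPM, 13), which form the osteoclast's vitronectin receptor.

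Neutrophil-like nuclei had 4 higher and 10 lower (7.78% and 9.63% of all genes), with a median of 0.368 against 0.480. Mmp25, the leukocyte membrane-type MMP, reached 69.0 CPM from 5 UMIs (ratio 19.6, 5.58 to 56.8), Adam8 773 CPM (5.46), Plaur, the urokinase receptor, 152 CPM (4.98), and Cd44, which docks Mmp9 on the cell surface, 2649 CPM (6.12). Vascular-like nuclei had 8 higher and 10 lower (8.63% and 12.2% of all genes), with a median of 0.980 against 0.829. They included Mmp28 (93.9 CPM, ratio 55.8, 22 to 159), Mmp15 (38.7 CPM, 8.04), and the proteoglycan-cutting Adamts9 (1784 CPM, 48.2), Adamts4 (116 CPM, 12.1) and Adamts1 (193 CPM, 10.4).

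The filters removed 319 barcodes of the day 5 post-MTI library, with 26.5% of all its UMIs, and they did not remove the members evenly. Of the Timp1 UMIs 71.5% (213 of 298) lay in removed barcodes, of Timp3 50.7%, of Mmp13 45.2%, of Mmp9 and Mmp14 42.9% each, of Mmp2 40.1%, of Mmp19 34.5%, of Timp2 22.7%, of Mmp8 20.0% and of Mmp12 3.43%. The mitochondrial limit took out 293 barcodes. In these Timp1 was at 135 CPM against 19.6 CPM in the retained nuclei, 6.91-fold (5.25 to 9.15), Mmp9 at 123 against 40.6 CPM, 3.04-fold (2.40 to 3.83), and Mmp14 at 228 against 102 CPM, 2.22-fold (1.89 to 2.61). Mmp12 was at 11.3 against 77.9 CPM, 0.145 (0.0741 to 0.256) of the retained level.

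Removed barcodes were named by their own marker UMIs to see which cells these were. Of the Timp1 UMIs 207 lay in 138 skeletal-named barcodes, spread over 41 of them with at most 29 in one, at 243 CPM (211 to 278) against 59.2 CPM in retained nuclei named in the same way, 4.10-fold (3.10 to 5.48). Of the Mmp9 UMIs 127 lay in 6 osteoclast-named barcodes, at 2098 CPM (1749 to 2496) against 592 CPM, 3.54-fold (2.75 to 4.56), but 93 of them came from 1 barcode with 32.2% mitochondrial UMIs. The same 6 barcodes had Mmp14 at 809.5 against 276 CPM, 2.93-fold (1.97 to 4.34), with 23 of the 49 Mmp14 UMIs in that same barcode. Of the Timp3 UMIs 78 lay in 25 vascular-named barcodes, of which 73 were in a single one with 12.2% mitochondrial UMIs. The median mitochondrial share of the removed barcodes was 10.8%, and the part of RNA from outside the nucleus in these values was not tested.

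**Figure D4:**
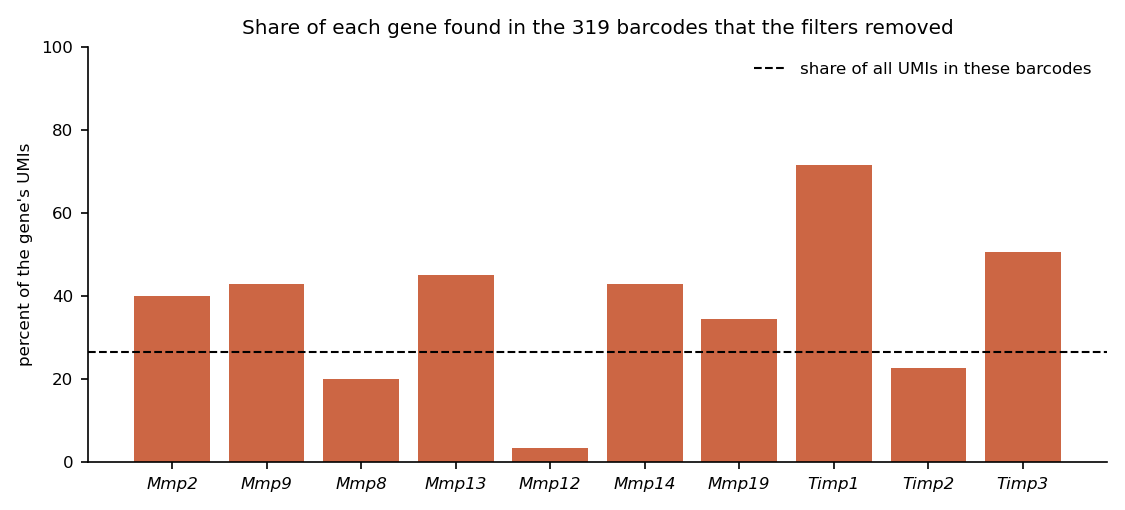
Percent of each gene's UMIs in the day 5 post-MTI library that lay in the 319 barcodes removed by the filters (bars), with the value for all genes together as a dashed line. Timp1 is highest at 71.5% and Mmp12 lowest at 3.43%, against 26.5% for all genes.

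In the day 1 post-fracture library the members did not exceed free RNA in the nuclei that passed the filters, and some were below it. These nuclei include the myogenic ones that the study removed. Of the 5523 barcodes of at least 200 genes, 4520 were myogenic by their own marker UMIs. Over all barcodes the totals were 146 UMIs of Mmp2, 81 of Mmp8, 316 of Mmp9, 83 of Mmp12, 140 of Mmp13, 365 of Mmp14, 312 of Mmp19, 312 of Timp1, 176 of Timp2 and 167 of Timp3. Free RNA was read from the 43464 barcodes under 200 genes, whose median was 148 UMIs. It was not tested whether shallow nuclei are among these barcodes. Relative to these, the 2405 nuclei that passed the filters had less Mmp9 (15 against 36.4 CPM, ratio 0.412, 0.240 to 0.664), Mmp14 (16.6 against 38.1 CPM, 0.437, 0.262 to 0.688), Timp1 (16.6 against 32.3 CPM, 0.516, 0.309 to 0.816) and Mmp19 (22.5 against 34.6 CPM, 0.649, 0.419 to 0.968). The ratios of Mmp2, Mmp8, Mmp12, Mmp13, Timp2 and Timp3 ranged from 0.481 to 1.16 with intervals that held 1. None of the 10 exceeded free RNA in these nuclei. With free RNA read instead from barcodes under 100 UMIs, the ratio was 1.18 for Mmp9, 0.819 for Mmp14 and 0.982 for Mmp19. At a mitochondrial limit of 5% the Timp1 ratio was 1.10, that of Mmp14 0.970 and that of Mmp19 0.847 (0.643 to 1.11). Mmp9 stayed lower there (0.685, 0.510 to 0.908), and Mmp12 was lower as well (0.426, 0.204 to 0.809).

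**Figure D5:**
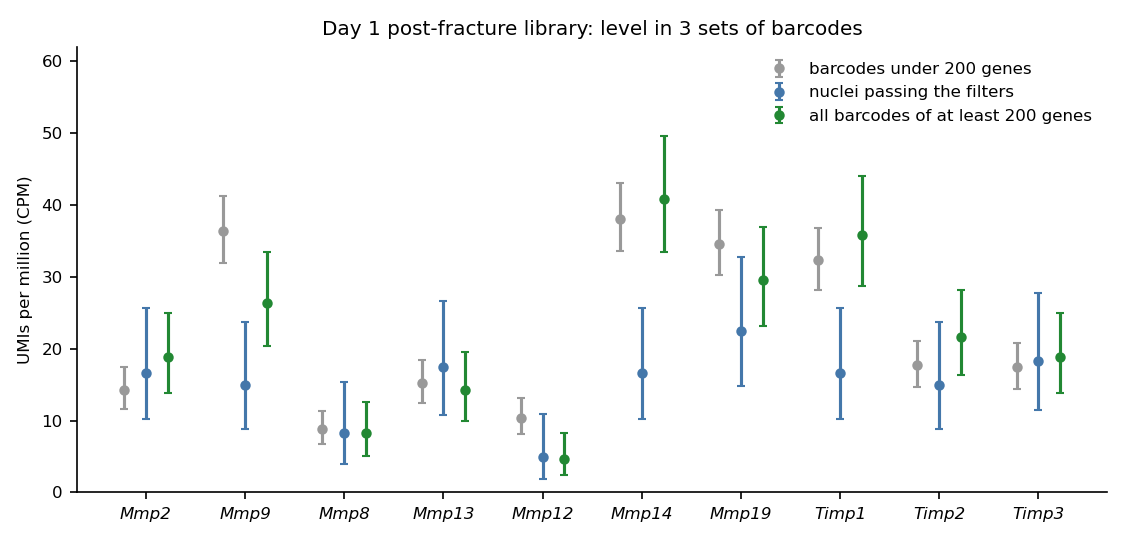
Level of each of the 10 genes in the day 1 post-fracture library (CPM with exact 95% Poisson intervals), in barcodes under 200 genes (grey), in nuclei that passed the filters (blue) and in all barcodes of at least 200 genes (green). Myogenic nuclei, which the study removed, are included. Mmp9, Mmp14, Mmp19 and Timp1 are lower in the filtered nuclei than in the barcodes under 200 genes, at 15, 16.6, 22.5 and 16.6 CPM.

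Day 1 barcodes of at least 200 genes were also named by their own marker UMIs, from as few as 2 UMIs and with free RNA included. The names therefore describe the barcodes only, and 4520 of 5523 took the myogenic name. In the few others some members exceeded free RNA. Osteoclast-named barcodes, 8 in all, had 4 UMIs of Mmp9 (726 CPM, 20.0-fold, 5.4 to 51.8) and 5 of Mmp14 (908 CPM, 23.8-fold, 7.67 to 56.3). Skeletal-named barcodes, 113 in all, had 15 UMIs of Timp1 (222 CPM, 6.88-fold, 3.79 to 11.6), 8 of Mmp2 (118 CPM, 8.28-fold, 3.48 to 17.0) and 7 of Mmp14 (104 CPM, 2.72-fold, 1.08 to 5.68). Macrophage-named barcodes, 67 in all, had 13 UMIs of Mmp19 (343 CPM, 9.92-fold, 5.20 to 17.3) and 1 of Mmp12. Neutrophil-named barcodes numbered only 9 with 3759 UMIs. They had 2 UMIs of Mmp19 (532 CPM, 15.4-fold, 1.85 to 56.2) and none of Mmp8 or Mmp9, which allows up to 798 CPM, so that no difference from free RNA was detectable for the latter 2.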

How the data were processed

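Single-nucleus libraries (10x 3′ kit) were made from sorted nuclei. The authors mapped reads with Cell Ranger 7.0.1 to mm10, exons and introns together, and deposited unnormalized UMI counts per gene and barcode. The labels also name a human reference, but all 32285 identifiers are mouse. Filters followed the study: 200 to 5000 genes, with mitochondrial UMIs below 5% and ribosomal UMIs below 2% at day 5 (0.5% and 2.5% at day 1). Unlike in the study, myogenic nuclei were kept. Clustering of day 5 nuclei used Seurat 5.3.0 (R 4.3.3) with 30 components and a resolution of 1.0, and immune and skeletal subsets were clustered again. Doublets were scored with scrublet in scanpy 1.11.5, which called 3 nuclei. All were kept. Counts were summed per class, with exact Poisson (CPM), Clopper-Pearson (shares) and conditional binomial (ratios) intervals from scipy 1.17.1. The ratio intervals were tried on simulated Poisson counts without spread between nuclei, so the trial does not cover genes held by few nuclei. A single library per condition allowed no test. Members, marker and pathway lists were chosen with earlier results of these data known. Named genes were the 10 members, pathway genes with at least 20 UMIs and past the fold in at least 1 class, the 3 most similar genes per member and 5 leading genes per cluster. Arg1 and Ccr2 were named in addition for the unnamed Olr1 cluster. Free RNA was not subtracted. Some listed genes are not reported here. Alternatives covered cluster resolution, filters, doublets, naming, weighting, fold and thinning.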

Additional observations from a re-analysis of the deposited data

How the results depend on the processing

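Mmp9 and Mmp14 stayed higher in osteoclast-like nuclei under every alternative tried, and Mmp2, Timp1 and Timp3 in skeletal-like nuclei under each one that gave a skeletal-like class. At the 0.5% mitochondrial limit that class could not be named and gave no value. At this limit the counts of higher members were 0 in neutrophil-like and 0 in vascular-like nuclei, with fewer nuclei left. The neutrophil count leaves out Mmp8, whose ratio was still 80.0 (28.3 to 244). Its 18 UMIs in all fell under the minimum for a call. Mmp9 in neutrophil-like nuclei, at 2.53 (0.998 to 5.35), did lose its call. The share of all genes called under each alternative is not given here. The macrophage count of 4 became 2 at a fold of 3 (Mmp12 and Mmp13) and 1 (Mmp12) without mitochondrial, ribosomal or upper gene limits. The vascular count of 1 became 2 without the upper gene limit and 2 without all 3 limits, Mmp13 being added both times. The last of these, the removal of the ribosomal limit and the removal of the richest nucleus of each gene were chosen after seeing the data. With each nucleus weighted equally the Mmp9 ratio of vascular-like nuclei turned from 0.264 to 1.11. At day 1 the Mmp9 ratio turned to 1.18 with free RNA read from barcodes under 100 UMIs, and the Timp1 ratio to 1.10 at a 5% mitochondrial limit. The causes were not tested. Of the other counts of higher members, 53 were within 1.5 times the main count. Mmp12 was the member whose ratio moved most often, between 8.30 and 145 in macrophage-like nuclei. Depth limits the neutrophil-like nuclei most, with 72482 UMIs. No paired analysis was possible because there was 1 library per condition.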
